A study of Caenorhabditis elegans with 4 samples.

Results

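Isolated shared H3K4me3 regions are stretches of the Caenorhabditis elegans genome that carried trimethylation of histone H3 at lysine 4 in both replicates and had no other marked region nearby. Peaks of the 2 deposited lists that overlapped by 1 bp or more were joined into regions, and a region was shared when it held a peak of each list. A shared region was isolated when no other region, shared or from one list, lay within 20000 bp of either edge. By this rule 336 of the 2917 shared regions were isolated (11.5%, 95% Wilson interval 10.4 to 12.7%), out of 4661 regions in all. The members were chosen by the positions of peaks, so gap lengths and local density are given as descriptions of the choice and not as findings. The rule named no width or score, but it needs a peak in each list, and weak peaks were less often found in both.

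The lists come from chromatin immunoprecipitation and sequencing (ChIP-seq) of whole wild-type N2 worms at the L3 larval stage, with no treatment or mutant. There are 4 samples in the labels, with 2 H3K4me3 ChIP replicates made with an antibody from Wako and 2 samples of input DNA, which enter no value here. Whole animals were used, so the cells that carried the mark at a region cannot be told apart. Replicate 1 has 4408 peaks and replicate 2 has 3280. Each peak has a score from the authors' peak caller, whose scale is not named and which has a ceiling at 3100, so scores are also given as percentiles within their own list. A peak at the ceiling has a percentile of 85.1 in replicate 1 and of 90.9 in replicate 2, since tied peaks share a rank. Positions refer to WormBase WS190, and regions are given without genes because the gene table at hand is for another build. Read depths are not known, and nothing in the labels says that the replicates came from separate cultures.

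H3K4me3 is laid down by methyltransferase complexes of the SET1 family, which contain the enzyme SET-2 in this worm, and it is known from nucleosomes at the 5′ ends of transcribed genes. The worm genome is compact, and many genes stand close together or share an operon, so marked promoters often have near neighbours. On the autosomes the central parts are rich in genes, whereas the arms have more repeats and more recombination. The X chromosome holds few genes that act mainly in the germ line and is subject to dosage compensation in hermaphrodites.

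Isolated regions had slightly lower median scores than the other shared regions, by a difference whose sign depended on the settings, and were narrower. The median score in replicate 1 was 2431 in isolated regions and 2580 in the other 2581 shared regions. In replicate 2 it was 821 in isolated regions and 929 in the others. As percentiles, the medians in replicate 1 were 65.8 (quartiles 49.0 and 85.1) in isolated regions and 66.8 (49.5 and 85.1) in the others. In replicate 2 they were 53.0 (28.3 and 77.8) in isolated regions and 55.1 (31.6 and 77.6) in the others. The difference of medians was −0.998 percentile points in replicate 1 and −2.09 in replicate 2. Other settings turned the sign in either list. With neighbours counted within 10000 bp, the difference was 1.63 points in replicate 1 and 2.18 in replicate 2. On autosomes alone it was 0.93 points in replicate 2.

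Both replicates were at the score ceiling in 70 of the 336 isolated regions (20.8%, 95% interval 16.8 to 25.5%) and in 523 of the other shared regions (20.3%, 18.8 to 21.9%). Scores under 300 in both lists were found in 31 isolated regions (9.23%, 6.58 to 12.8%) and in 7.40% of the others (6.45 to 8.47%). In both respects the intervals of isolated and other regions overlap. They cover counting error and treat regions as independent. All regions come from the same 2 libraries of 1 group, so no test over samples is possible, and differences between isolated and other regions are given as descriptions throughout.

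The median region width was 1475 bp (quartiles 1117 and 2064 bp) in isolated regions and 1633 bp (1228 and 2333 bp) in the others, a ratio of 0.903. The same order held within each list. The widest peak of a region had a median of 1417 bp in isolated regions and 1521 bp in the others in replicate 1. In replicate 2 the medians were 1291 bp in isolated regions and 1428 bp in the others. Narrow regions of under 1000 bp made up 15.5% of isolated regions (95% interval 12.0 to 19.7%) and 9.34% of the others (8.27 to 10.5%). Regions wider than 5000 bp made up 2 of the 336 isolated regions (0.595%, 0.163 to 2.14%) and 63 of the others (2.44%, 1.91 to 3.11%). The width difference was also present within parts of chromosomes. Within the 3 equal parts of each of the 6 chromosomes, isolated regions had the lower median width in 15 of 18 parts, and the ratio weighted by the number of isolated regions was 0.884. By whole chromosome the ratio was below 1 on 4 of 6. It was 0.752 on V, 0.856 on III, 0.891 on X and 0.909 on I, against 1.01 on IV and 1.03 on II.

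**Figure D1:**
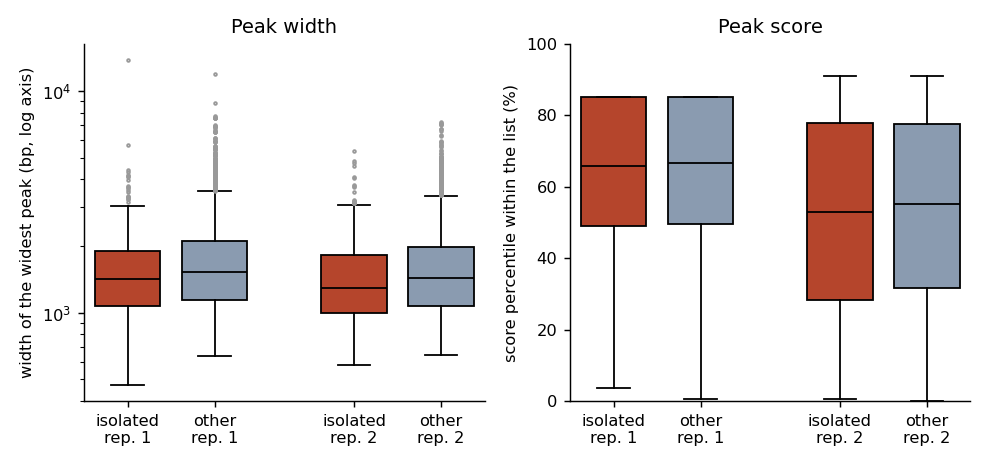
Width of the widest peak of a region in bp on a log axis (left) and score percentile within the list in percent (right), for the 336 isolated and the 2581 other shared regions in each replicate (rep.). Boxes span the quartiles with the median as a line, whiskers reach up to 1.5 times the quartile range and dots lie beyond; the isolated boxes sit slightly lower for width, with medians of 1417 and 1521 bp in replicate 1, and nearly level for score.

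Score differences went in different directions on different chromosomes. By whole chromosome, isolated regions had the lower median percentile on 2 of 6 in replicate 1 and on 3 of 6 in replicate 2. On III, the median percentile in replicate 1 was 60.2 in isolated regions and 85.1 in the others, and in replicate 2 it was 48.6 in isolated regions and 60.5 in the others. On I the order was the opposite, with 85.1 in isolated regions and 67.5 in the others in replicate 1, and 65.6 and 57.0 in replicate 2. No single replicate 1 peak has a percentile between 70.2 and 85.1, because peaks at the ceiling share a rank. A replicate 1 median can thus jump across that gap through a few regions, and the sizes of these differences depend on it. On X the medians in replicate 2 were 36.5 in isolated regions and 40.3 in the others, whereas in replicate 1 they were 57.3 in isolated regions and 56.1 in the others. On II the medians in replicate 2 were 70.6 in isolated regions and 59.1 in the others, and in replicate 1 both were 85.1. Over the 18 chromosome parts, isolated regions had the lower median percentile in 7 in replicate 1 and in 8 in replicate 2. The weighted mean differences within parts were 0.45 and −0.14 percentile points in replicates 1 and 2.

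The replicates ranked isolated regions alike. Spearman's rho of the scores was 0.914 across the 336 isolated regions and 0.882 across the other shared regions. Without the regions at the ceiling in either list, rho was 0.859 over 188 isolated regions and 0.776 over 1422 others. Peak widths had a rho of 0.896 in isolated regions and 0.812 in the others. These are correlations across regions of 2 libraries, in which score and width are also related (rho of 0.495 in replicate 1 and 0.607 in replicate 2 over isolated regions), and no p-value is attached. In the median isolated region, the bases covered by both lists were 91.4% of those covered by either, against 89.9% in the median of the others. All but 7 of the isolated regions held a single peak in each list (329 of 336, 97.9%), as did 96.4% of the others. The percentiles of the lists lay more than 25 points apart in 46 isolated regions (13.7%, 95% interval 10.4 to 17.8%) and in 388 others (15.0%, 13.7 to 16.5%).

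**Figure D2:**
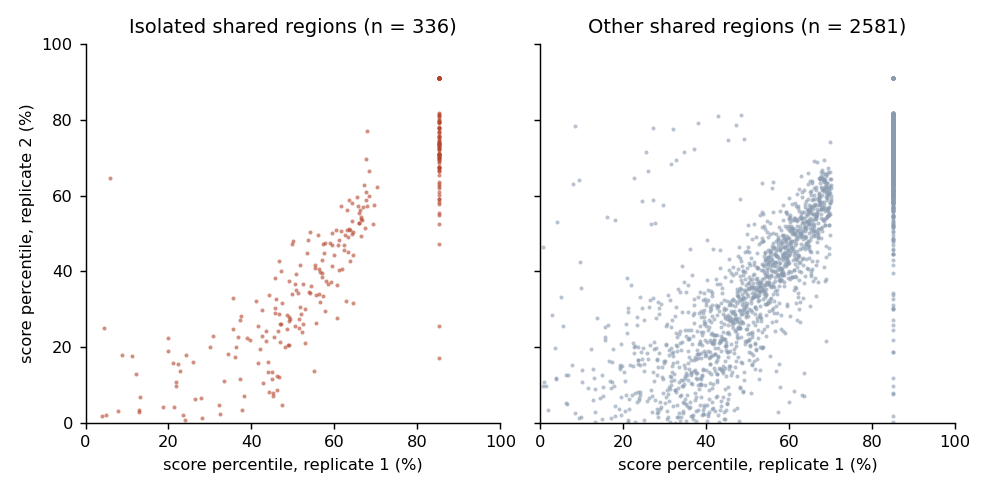
Score percentile in replicate 2 against that in replicate 1, both in percent within the list, with a dot for each of the 336 isolated (left) and 2581 other (right) shared regions. The column of dots at 85.1 holds the regions at the score ceiling of replicate 1; both clouds follow the same course, with rho of 0.914 and 0.882.

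In 3 isolated regions (0.893%) the percentiles differed by more than 50 points, as they did in 29 of the other shared regions (1.12%). The 3 isolated ones were chosen for description after their values were seen. The first, on chromosome V (20660071 to 20673849), scored 3100 in replicate 1 with a peak of 13779 bp and 105.8 in replicate 2 with a peak of 4609 bp. It is also the widest of all shared regions. The next lies on X (2144380 to 2145912) and scored 3100 in replicate 1 and 165.4 in replicate 2, with peaks of 1533 and 1132 bp. The remaining one, on V (14239850 to 14241322), had the opposite order, with 67.9 in replicate 1 and 1416 in replicate 2.

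Regions standing alone were found in both lists about as often as regions with neighbours. Of all 543 regions with no neighbour within 20000 bp, 336 held a peak of each list (61.9%, 95% interval 57.7 to 65.9%), and of the 4118 regions with a neighbour, 62.7% did (61.2 to 64.1%). Another 165 regions without a neighbour were found in replicate 1 alone and 42 in replicate 2 alone. Among regions with a replicate 1 peak, 67.1% of those standing alone and 66.6% of the others were also found in replicate 2. Among regions with a replicate 2 peak, 88.9% of those standing alone and 91.4% of the others were found in replicate 1. Compared within 5 bands of score, the difference was 1.71 percentage points for replicate 1 peaks and −1.94 for replicate 2 peaks. At the ceiling in replicate 1, all 148 regions standing alone and 1159 of 1164 others (99.6%) were found in replicate 2, and at the ceiling in replicate 2, all 70 standing alone and all 523 others were found in replicate 1. At scores under 100 in replicate 1, 11 of 71 regions standing alone (15.5%, 8.88 to 25.7%) and 34 of 503 others (6.76%, 4.88 to 9.30%) were also found in replicate 2. At scores of 100 to 300 the shares in replicate 1 were 20.2% standing alone and 23.4% in the others, and at 300 to 1000 they were 76.8% and 70.2%. In replicate 2 they were 65.6% standing alone and 65.7% in the others under 100, 82.9% and 87.5% at 100 to 300, and 92.0% and 95.8% at 300 to 1000. The order changed from band to band in replicate 1, and the differences were not tested.

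Isolated regions lay on every chromosome, at a density that varied little. Their number per Mb was 3.06 on I, 3.19 on III, 3.21 on both II and IV, 3.64 on V and 3.69 on X. The other shared regions ranged from 17.0 per Mb on V to 37.2 on III. As a share of the shared regions of a chromosome, isolated regions therefore ranged widely. They made up 17.6% on V (76 of 431, 95% interval 14.3 to 21.5%) and 16.2% on X (65 of 402, 12.9 to 20.1%). The share was 12.1% on IV, 10.4% on II, 7.90% on III and 7.77% on I (46 of 592, 5.88 to 10.2%). The intervals of V and X lie above that of I, while those of neighbours in this order overlap. X held 19.3% of isolated regions and 13.1% of the others, and V held 22.6% of isolated regions and 13.8% of the others. The rule favours sparse chromosomes by construction, because fewer regions leave longer gaps.

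On the autosomes pooled, a larger share of the shared regions was isolated in arms than in centres, and on X the order was the opposite, a difference between X and autosomes that was not tested. Each chromosome span, taken up to the end of its last peak, was divided into 3 equal parts, of which the outer ones are called arms. Arms held 67.3% of isolated regions (226 of 336, 95% interval 62.1 to 72.1%) and 56.1% of the others (54.2 to 58.0%). On autosomes, 13.3% of the shared regions of arms were isolated (11.6 to 15.2%), against 7.50% in centres (6.08 to 9.21%). On X, the shares were 14.6% in the arms (37 of 253, 10.8 to 19.5%) and 18.8% in the centre (28 of 149, 13.3 to 25.8%), whose intervals overlap. Counted per Mb, isolated regions on autosomes numbered 3.44 in arms and 2.98 in centres, while the other shared regions numbered 22.4 in arms and 36.8 in centres. Single autosomes differed in this, with 2.89 isolated regions per Mb in arms and 3.39 in the centre of I, and 3.18 in arms and 3.26 in the centre of IV. On X there were 3.15 isolated regions per Mb in the arms and 4.76 in the centre. The contrast between arms and centres on autosomes was thus mostly one of the other regions. The right arm of V had the highest share of isolated regions (27 of 103, 26.2%, 18.7 to 35.5%), followed by its left arm (26 of 119, 21.8%). The centre of III had the lowest (11 of 232, 4.74%), and the left arm of I was next to it (9 of 186, 4.84%).

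**Figure D3:**
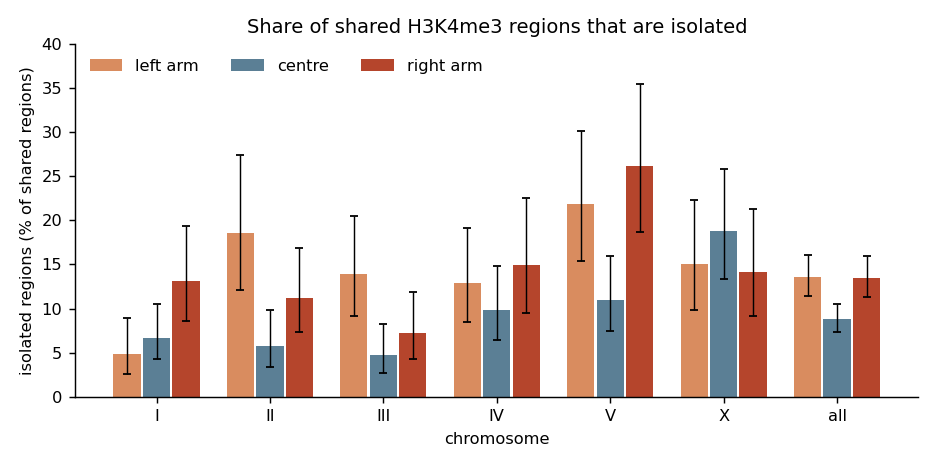
Isolated regions as a percentage of the shared regions in the left arm, centre and right arm of each chromosome, and over all chromosomes. Error bars are 95% Wilson intervals; the arms of V stand highest at 21.8 and 26.2%, and on X the centre, at 18.8%, is not below the arms.

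The number of isolated regions depends on the distance chosen, also relative to random placement. If the regions of each chromosome were placed at random without overlap, 381 of the shared ones would be expected to have no neighbour within 20000 bp, as computed from a closed formula. The observed 336 were 0.882 times that number. On IV there were 56 isolated regions and 76.8 expected, and on V there were 76 and 100.3 expected. Both had fewer than random placement gives, with ratios of 0.729 and 0.758. On III there were 44 and 36.3 expected, a ratio of 1.21, while I, II and X had ratios of 0.978, 0.957 and 0.936. No spread of the expected numbers was computed, and the ratios were not tested. With the number of regions in each of the 3 parts of a chromosome kept, the total expected was 374.1, and the ratio was 1.13 in centres and 0.816 in arms.

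The deficit at 20000 bp turned into an excess at longer distances. With a distance of 10 kb, 804 shared regions had no neighbour and 1028 were expected, a ratio of 0.782. At 25 kb the counts were 240 observed and 236.1 expected. At 30 kb the ratio was 1.19, at 40 kb there were 90 regions and 59.8 expected, and at 50 kb there were 43 regions and 25.1 expected, a ratio of 1.72. At 60 kb it was 2.41 over 26 regions. Autosomes and X crossed the expected number at about the same distance, and the ratios at 50 kb were 1.40 on X, from only 7 regions, and 1.80 on autosomes. These counts are nested, since each region at a long distance is also counted at the shorter ones, and no p-value is attached.

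**Figure D4:**
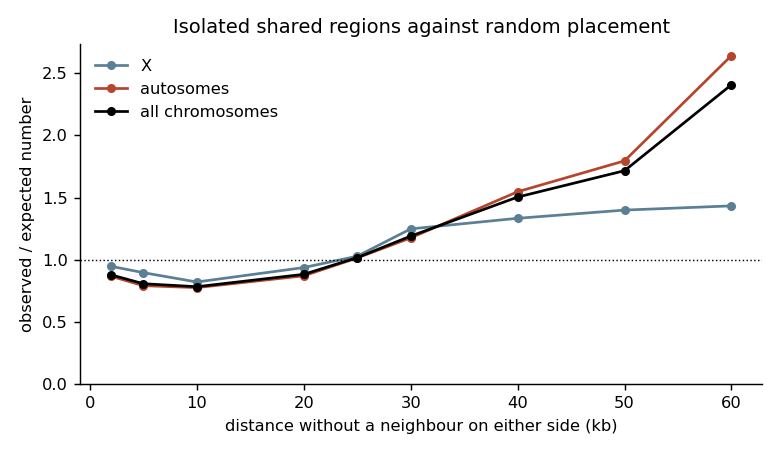
Ratio of the observed to the expected number of shared regions with no neighbour within a distance in kb on either side, for X, autosomes and all chromosomes. The dotted line marks random placement; the ratio over all chromosomes is lowest at 10 kb (0.782), passes 1 near 25 kb and reaches 2.41 at 60 kb.

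Most isolated regions were only moderately far from their neighbours. The gap to the nearer neighbour had a median of 30622 bp (quartiles 24290 and 41471 bp), and that to the farther one a median of 53169 bp. The nearer gap was over 30000 bp in 176 isolated regions (52.4%), over 50000 bp in 43 (12.8%) and over 100000 bp in 5 (1.49%). Among the nearer neighbours, 194 were shared regions (57.7%), 118 were found in replicate 1 alone (35.1%) and 24 in replicate 2 alone (7.14%). These shares were 62.7, 31.4 and 5.88% among the 4118 regions with a neighbour within 20000 bp. Among the 543 regions without one they were 61.9, 30.4 and 7.73%. In 64 cases (19.0%) the nearer neighbour was itself an isolated shared region.

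Regions on both sides of the 20000 bp limit had a range of scores. Just inside it were regions on IV (8665784 to 8666931), I (3929754 to 3930825) and X (6840151 to 6842209), with nearer gaps of 20012, 20061 and 20119 bp. Their scores were 1140, 946.5 and 3100 in replicate 1 and 519.6, 163.9 and 3100 in replicate 2. Just outside it were regions on IV (9074129 to 9075185), X (13349537 to 13351277) and III (1142481 to 1143953), with nearer gaps of 19970, 19946 and 19918 bp. Those scored 3100, 1918 and 3100 in replicate 1 and 2054, 449.2 and 3100 in replicate 2.

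Median score percentiles were lowest in the most remote class of regions, those beyond 50 kb. Over all shared regions, the median percentile in replicate 1 was 65.0 with a nearer gap of up to 2 kb, 69.6 at 10 to 20 kb, 67.0 at 20 to 30 kb and 68.3 at 30 to 50 kb, but 54.1 beyond 50 kb. In replicate 2 the corresponding medians were 51.8, 58.3, 56.7, 57.2 and 33.9. Region width had a steadier course, with medians of 1684 bp up to 2 kb, 1572.5 bp at 10 to 20 kb, 1535.5 bp at 20 to 30 kb, 1452 bp at 30 to 50 kb and 1261 bp beyond 50 kb. These gap classes were set after the data were seen. Across all isolated regions, Spearman's rho of nearer gap and score percentile was weak, at −0.116 in replicate 1 and −0.106 in replicate 2. Across the other shared regions it was 0.066 and 0.069. For nearer gap and region width, rho was also weak, at −0.116 across isolated regions and −0.074 across the others.

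**Figure D5:**
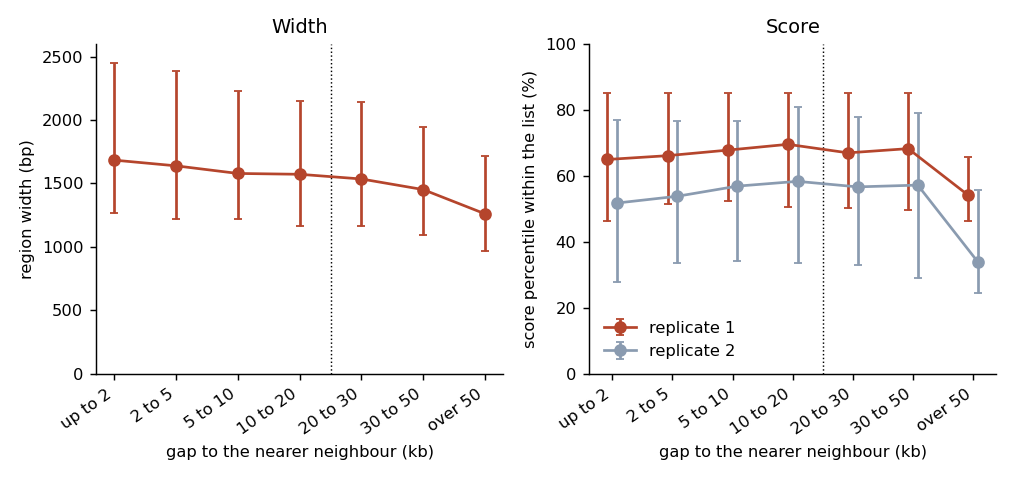
Region width in bp (left) and score percentile within each list in percent (right) of shared regions, by the gap to the nearer neighbour in kb; points are medians, bars reach the quartiles, and the dotted line marks the 20 kb limit of isolated regions. The median width declines from 1684 bp to 1261 bp across the classes, with overlapping quartiles. The median percentile in replicate 1 is 65.0 in the first class, 69.6 at 10 to 20 kb and 54.1 beyond 50 kb.

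The 43 isolated regions more than 50 kb from any other had lower scores, and a larger share of them in arms, than the remaining 293. The median score in replicate 1 was 1209 beyond 50 kb (quartiles 715 and 2395) and 2688 at 20 to 50 kb (907 and 3100). In replicate 2 the medians were 278.4 beyond 50 kb (155 and 953) and 1028 at 20 to 50 kb (224 and 2583). The ceiling of replicate 1 was reached by 10 of the 43 (23.3%, 95% interval 13.2 to 37.7%) and by 138 of the 293 (47.1%, 41.5 to 52.8%). Arms held 38 of the 43 (88.4%, 75.5 to 94.9%) and 188 of the 293 (64.2%, 58.5 to 69.4%), and the right arm of V alone held 10 of the 43 (23.3%) and 17 of the 293 (5.80%). A longer gap favours sparse parts of chromosomes by construction, so these shares describe the choice and are not findings. On autosomes the other shared regions numbered 22.4 per Mb in arms and 36.8 in centres. Within arms, the median percentile in replicate 1 was 53.3 beyond 50 kb and 77.2 at 20 to 50 kb, and in replicate 2 it was 33.0 and 59.0. The value of 77.2 is the mean of 2 middle regions, at 69.3 and at the tied ceiling rank of 85.1. The size of that difference in replicate 1 therefore depends on the tie. Outside chromosome V, the median percentile was 56.4 beyond 50 kb and 66.3 at 20 to 50 kb in replicate 1, and 36.2 and 54.4 in replicate 2. Scores under 300 in both lists were found in 2 of the 43 (4.65%, 1.28 to 15.5%) and in 29 of the 293 (9.90%, 6.98 to 13.9%), and these intervals overlap.

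The 10 most remote regions show this range, and 6 of them lie on V. The most remote of all, on V (15765421 to 15766562, 1142 bp), had its neighbours 186616 and 256009 bp away and scored 2185 in replicate 1 and 841.3 in replicate 2. Its peaks were 1128 and 1140 bp wide in the 2 lists. A second region of the right arm of V (18231361 to 18232489), 143472 bp from its nearer neighbour, scored 583.9 in replicate 1 and 153.8 in replicate 2. On II, the most remote region (3682777 to 3683673) lay almost midway between neighbours 128250 and 123888 bp away, with scores of 379.5 and 181.9. The peaks were 1108 and 979 bp wide in replicates 1 and 2 in this second region of V, and 897 and 874 bp wide in the region of II.

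The right arm of IV held a remote pair. The region at 16167632 to 16170996 was broad for a remote region, at 3365 bp, and scored 1941 in replicate 1 and 406.9 in replicate 2, with gaps of 235382 and 123058 bp. The other, at 15646675 to 15647594, was 920 bp wide with scores of 950.3 and 381.7 and gaps of 117719 and 282346 bp. On V, the region at 19405464 to 19406250, 95521 bp from its nearer neighbour, had the lowest mean percentile of all isolated regions, with scores of 61.4 in replicate 1 and 52.8 in replicate 2. The remaining ones on V lie at 18808166 to 18808998, 4065835 to 4066814 and 17648280 to 17649540. They had nearer gaps of 84087, 76181 and 75278 bp and scores of 408.6, 390.7 and 1178 in replicate 1 and of 65.1, 56.0 and 622.9 in replicate 2. The tenth, on I (13950753 to 13953902, 3150 bp), was the only one of the 10 at the ceiling, and it was so in both lists. On III and X, the most remote isolated regions were at 1704999 to 1705824 and at 11797946 to 11798939. The one on III had a nearer gap of 71127 bp and scored 1377 in replicate 1 and 278.4 in replicate 2. The one on X had a nearer gap of 69993 bp and scored 1014 and 159.1.

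Strong marks were also found in wide empty stretches. Besides the region on I at 13950753, the most remote regions at the ceiling in both lists were on V (20085581 to 20087235, nearer gap 66143 bp), II (9415815 to 9417560, 62240 bp), I (13160376 to 13163016, 61046 bp) and IV (1177659 to 1178972, 59950 bp). Their widths ranged from 1314 to 2641 bp, and the region on I at 13950753 was 3150 bp wide. The quartiles of width in the other shared regions were 1228 and 2333 bp. After the region on V at 20660071, the widest isolated regions were on IV (14821975 to 14827698, 5724 bp), IV (8429245 to 8434089, 4845 bp), I (10329399 to 10334240, 4842 bp) and V (14829608 to 14834355, 4748 bp). The first and the third of these were at the ceiling in both lists, and the second scored 3100 in replicate 1 and 2158 in replicate 2. The last was weak for its width, with scores of 707.7 and 82.4, and was made of 2 peaks in each list.

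At the lower end, 7 isolated regions scored under 100 in both lists (2.08%, 95% interval 1.01 to 4.24%), as did 0.852% of the other shared regions (0.564 to 1.29%). After the region on V at 19405464, the lowest mean percentiles were on III (1259995 to 1261941, with 65.0 in replicate 1 and 53.2 in replicate 2), at the start of IV (73.4 and 54.8), on X (8676293 to 8677089, 97.1 and 54.4) and on V (11704752 to 11705635, 97.9 and 55.4). The one on IV has a deposited start of -110 and an end of 466, so part of it lies before the first base of the chromosome. It has a neighbour on 1 side only, 50386 bp away.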

How the data were processed

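H3K4me3 peak lists of 2 ChIP samples were used, and the 2 input DNA samples enter no value. BWA, which aligns reads, is named in the submitters' processing notes with no settings. Per the file headers, positions are on WormBase WS190. The deposited lists, 1 per sample, hold other values (the peak positions) and a score per peak from the authors' caller, which is named both MA2C and MACS in the files. The few scores above the ceiling of 3100 were ranked as tied with it. A region's score in a list is that of its highest peak. Of the deposited peaks, 1 in replicate 1 and 4 in replicate 2 start before base 1, and they were kept.

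Regions were joined and gaps measured in Python 3.11.15 with pandas 2.3.3, and Wilson intervals came from scipy 1.17.1. The expected number of isolated regions follows from the number and summed width of regions on each chromosome span, and the formula was tested on simulated data. Shares given by band use limits of 100, 300, 1000 and 3100. Intervals cover counting error only, and PCR-amplified reads are not independent molecules. The members, the tests and the rule for named regions (the most remote, widest, strongest and weakest, and those nearest the limit) were chosen with earlier results of these data known. Regions were named instead of genes because no annotation of WS190 was at hand.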

Additional observations from a re-analysis of the deposited data

How the results depend on the processing

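Over 10 results, 85 alternative values were computed, of which 42 had the same direction and moved by less than the spread between the single lists (or, for the number of regions, by less than 1.5 times; for values without such a spread, within the 95% interval), 34 moved further and 9 changed sign. The spread between the single lists is the standard deviation of only 2 values, which are themselves among the alternatives. It was 0.0035 for the width ratio and 5.30 percentage points for the percent isolated. A small change can thus count as moved in one result and a larger one as the same in another. The tally is therefore not a measure of stability. No paired analysis was possible because the 2 ChIP replicates form a single group and no value of the input samples was used.

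With other distances, the number of isolated regions was 804 at 10000 bp and 176 at 30000 bp (27.6% and 6.03% of shared regions). It was 678 (23.2%) when only shared regions counted as neighbours, because fewer neighbours are then considered. With either replicate left out, 562 to 664 peaks of the remaining list were isolated (12.8 to 20.2%). In these settings a region no longer had to be found in both lists, and fewer neighbours were counted. With both lists as neighbours and no need to be shared, 501 regions with a replicate 1 peak and 378 with a replicate 2 peak were isolated. In the same 2 settings the width ratio was 0.906 to 0.911, the ratio to random placement 0.829 to 0.849, the difference in arms 7.15 to 15.2 percentage points and that on X 5.28 to 7.76 points. The score difference was −0.12 points in replicate 1 without replicate 2 and −1.51 points in replicate 2 without replicate 1.

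The width ratio stayed below 1 in all alternatives run. It was 0.924 at 10000 bp, 0.879 at 30000 bp, 0.929 with scores of at least 100, 0.928 with shared neighbours only, 0.899 with an overlap of 50% of the shorter peak, 0.911 on autosomes, 0.883 in arms, 0.926 without V and 0.884 when weighted over chromosome parts.

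The score difference in replicate 1 was 1.63 points at 10000 bp, −3.21 at 30000 bp, 0 with scores of at least 100, 0.22 with shared neighbours only and 0.45 within chromosome parts. In replicate 2 it was 2.18, −4.25, 1.80 and −0.72 in the first 4 of these settings, 0.93 on autosomes, −3.23 without V and −0.14 within chromosome parts. The arm difference was 19.4 points at 30000 bp and −7.17 points on X alone, and the X difference was 4.50 points at 10000 bp.

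The ratio to random placement was 0.782 at 10000 bp, 1.19 at 30000 bp, 0.837 with scores of at least 100, 0.826 with shared neighbours only and 0.898 with the number in each chromosome part kept. The difference in the share found in both lists was −0.80 points and became 0.18 points at 10000 bp, and rho of scores was 0.859 below the ceiling. Comparisons without V, of X alone, of autosomes for arms, within chromosome parts and without regions before base 1 were chosen after the data were seen. The causes were not tested. Read depth is not known, so missing weak neighbours cannot be told from absent ones.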

Other observations

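Runs of isolated regions along a chromosome are described here without a test, since they are made of the same gaps as the rule, and neighbours in a run share a gap. Of the 336, 134 (39.9%) stood next to another isolated shared region with no other region between them, in 46 runs of 2, 10 runs of 3 and 3 runs of 4. The longest run by extent lay near the left end of V (724343 to 965237, 240895 bp), where 4 regions were spread over a stretch with gaps of 45099, 129367 and 58644 bp. Their scores along the chromosome were 2719, 3100, 2605 and 1006 in replicate 1 and 2504, 2996, 1313 and 285.8 in replicate 2. Another run of 4 lay near the left end of III (130856 to 299426), and 2 of its regions were at the ceiling in both lists, while the last scored 253.4 in replicate 1 and 143.0 in replicate 2. The remaining run of 4 was in the centre of I (9198619 to 9286949), within 88331 bp. Its first region scored 171.3 in replicate 1 and 51.3 in replicate 2, and the next one 3100 and 1350. Strong and weak isolated regions thus stood side by side in the runs on III and I.

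Most regions without a neighbour that were found in a single list had low scores, although the highest reached 2119 in replicate 1 and 2851 in replicate 2. In replicate 1, the median score was 123.5 and the median width 817 bp in these 165 regions, while the 1295 regions of that list alone with neighbours had medians of 131.1 and 875 bp. Arms held 73.9% of the 165 and 55.5% of the 1295, and the gap rule favours sparse parts of chromosomes by construction. In replicate 2, the median score was 102.2 in the 42 without neighbours and 78.8 in the 242 with neighbours, the median widths were 1109 and 1088 bp, and 85.7% of the 42 and 77.3% of the 242 lay in arms.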
